A study of Homo sapiens with 4 samples.

Results

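The genes described are 10 genes of lipoprotein assembly, APOA1, APOA2, APOA4, APOA5, APOB, APOC1, APOC3, APOE, APOM and MTTP, chosen by name from the 58302 genes listed for each library. All 10 were found, each once, and all passed the minimum level used for a comparison, which was 1 FPKM in at least 1 of its libraries. They were measured by mRNA-seq in HepG2, a human hepatocellular carcinoma cell line with the genotype given as WT, in 4 libraries of polyadenylated RNA. The conditions were melatonin at 1 mM, a hormone of the pineal gland, or DMSO as its control, each for 24 h or 48 h. The study asked how melatonin inhibits the growth of these cells, and examined both alternative splicing and gene expression. Each condition is 1 library of 1 cell line, so there was no spread between cultures to weigh a difference against, no p-value is given for any of them, and the intervals below (95%, from the number of reads) cover counting error only. In a bulk library, fewer cells that express a gene and less RNA per cell cannot be told apart.

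Apolipoproteins are the protein part of the particles that carry fat and cholesterol through blood. The hepatocyte builds very low density lipoprotein (VLDL) around a single large molecule of apolipoprotein B, onto which the microsomal triglyceride transfer protein (MTP), whose large subunit MTTP encodes, loads lipid in the endoplasmic reticulum. Apolipoproteins A-I and A-II are the main structural proteins on the surface of high density lipoprotein (HDL), and the small C apolipoproteins, apolipoprotein E and apolipoprotein A-V ride on the particles and set how fast lipases and receptors clear them.

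In the deposited gene coordinates (hg38), the 10 genes lie in 6 places. APOA5, APOA4, APOC3 and APOA1 stand side by side in 48.6 kb of chromosome 11, at 116789367 to 116792420, 116820700 to 116823306, 116829706 to 116833072 and 116835751 to 116837950, with APOC3 on the forward strand and the other members on the reverse strand. APOE (44905754 to 44909393) and APOC1 (44914247 to 44919349) share 13.6 kb of chromosome 19, both on the forward strand. APOA2 lies on chromosome 1 (161222292 to 161223631, reverse strand), APOB on chromosome 2 (21001429 to 21044073, reverse strand), MTTP on chromosome 4 (99563761 to 99623999, forward strand) and APOM on chromosome 6 (31652416 to 31658210, forward strand). The values are totals of all exons of a gene, so a change in one exon, intron or UTR cannot be read from them.

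The members past 1.5-fold at 24 h, as described further on, were APOA2, which was higher with melatonin, and APOA4, APOA5 and MTTP, which were lower. The 250 bases before their transcription starts (RefSeq, GRCh38.p14) are printed to show the promoters of the genes with these differences, 5′ to 3′ on the strand of the gene and ending at the last base before the start. Capitals mark matches, on either strand, to 6 short motifs searched for, which were TATAAA (bound by TBP), AGGTCA (nuclear receptor motif), CAAAGTC (HNF4 core), GTTAAT (HNF1 motif), TTGCNNAA (C/EBP site) and GGGCGG (GC box). Of the MTTP starts, that of the canonical transcript is shown. For APOA5 both starts are shown, of which the second is that of the canonical transcript. No match of one motif overlapped a match of another in these windows.
APOA2 chr1:161223629-161223878 (-): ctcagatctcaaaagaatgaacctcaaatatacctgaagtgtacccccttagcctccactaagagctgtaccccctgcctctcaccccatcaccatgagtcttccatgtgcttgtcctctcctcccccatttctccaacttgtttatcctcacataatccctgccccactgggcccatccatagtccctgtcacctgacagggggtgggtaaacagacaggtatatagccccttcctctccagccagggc
APOA5 chr11:116792421-116792670 (-): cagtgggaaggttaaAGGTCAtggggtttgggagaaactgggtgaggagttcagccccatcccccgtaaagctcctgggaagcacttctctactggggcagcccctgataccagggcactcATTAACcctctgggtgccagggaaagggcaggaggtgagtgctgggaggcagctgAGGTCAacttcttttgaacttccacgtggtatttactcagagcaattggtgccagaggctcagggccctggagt
APOA5, second start, chr11:116791880-116792129 (-): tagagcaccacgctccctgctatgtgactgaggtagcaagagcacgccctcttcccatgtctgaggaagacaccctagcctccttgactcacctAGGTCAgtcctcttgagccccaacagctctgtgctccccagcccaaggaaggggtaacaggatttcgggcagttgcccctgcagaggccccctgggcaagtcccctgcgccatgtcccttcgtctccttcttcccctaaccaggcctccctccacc
APOA4 chr11:116823305-116823554 (-): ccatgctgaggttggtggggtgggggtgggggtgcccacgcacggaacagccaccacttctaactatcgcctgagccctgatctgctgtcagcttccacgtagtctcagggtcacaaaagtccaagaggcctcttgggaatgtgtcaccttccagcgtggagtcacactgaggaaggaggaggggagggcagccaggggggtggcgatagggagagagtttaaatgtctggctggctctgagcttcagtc
MTTP chr4:99574574-99574823 (+): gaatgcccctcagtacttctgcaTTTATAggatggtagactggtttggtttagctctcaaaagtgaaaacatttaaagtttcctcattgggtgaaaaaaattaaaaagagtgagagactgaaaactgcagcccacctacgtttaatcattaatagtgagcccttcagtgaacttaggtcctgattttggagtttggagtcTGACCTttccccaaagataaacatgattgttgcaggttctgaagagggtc

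The nuclear receptor motif was found in 3 of the 5 windows, both of APOA5 and that of MTTP. It was in 12.1% of the 35116 promoters of this length in the RefSeq table. These shares cannot be compared, because the genes were chosen by their values and APOA5 is counted with both its starts. In APOA5 the motif stood at -235 to -230 and -74 to -69 from the first start and at -156 to -151 from the second. In MTTP it stood on the opposite strand at -50 to -45. The HNF1 motif, in 6.23% of promoters, was found on the opposite strand of the first APOA5 window at -129 to -124, and the TBP motif, in 10.7%, on the opposite strand of MTTP at -227 to -222. The windows of APOA2 and APOA4 held none of the 6 motifs, which says only that these letters are not there. The HNF4, C/EBP and GC box motifs are in 2.91%, 9.05% and 42.6% of promoters and were in none of the 5 windows. The window of the other MTTP start, which is not printed, held the GC box at -108 to -103 and at -7 to -2 and no other of the 6 motifs. The windows of APOM, APOE and APOC1, also not printed, did not hold the nuclear receptor motif. Of the 10 genes 7 had a promoter in the table. APOA1, APOB and APOC3 did not.

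The reads on genes numbered 21616676 to 23086025 per library, and 3 reads on a gene of 1 kb corresponded to an FPKM of 0.135 to 0.163. Of these reads mitochondrial genes took 20.0% (DMSO) and 16.6% (melatonin) at 24 h, and 9.77% and 11.9% at 48 h. Their part in the differences below was not tested. With a library size counted without them, every difference of the 10 genes kept its sign while some sizes moved. At 48 h the median log2 fold change of the 10, melatonin over DMSO, went from -0.28 to -0.21. That of APOE went from -0.13 to -0.06. The hepatocyte markers were present, 8 of 8 at an FPKM of at least 1 in every library, and their summed FPKM at 24 h was 6883 (DMSO) and 6858 (melatonin), against 7023 and 5807 at 48 h. At 48 h, 3 of the 8 were higher with melatonin and 5 were lower. Past 2-fold were AFP, from 1902 to 782, and TTR, from 50.6 to 256. Of 6 enterocyte markers only VIL1 reached an FPKM of 1, and the other 5 summed to at most 0.986. Of 6 macrophage markers LYZ had an FPKM of 729 and 861 at 24 h and 736 and 1069 at 48 h (DMSO and melatonin), and the other 5 summed to 0.380 to 1.20. The 6 fibroblast markers summed to 4.05 to 7.63, with PDGFRB at 0.774 to 4.33, ACTA2 at 2.11 to 3.81 and COL3A1 and DCN at 0 reads. The part of LYZ, PDGFRB and ACTA2 in the differences below was not tested.

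Per length, the 10 genes covered a wide range of levels in every library, from apolipoprotein transcripts among the most abundant of the cell to APOA4, which was near the limit used for a comparison. In DMSO at 24 h the order was APOB, APOA1, APOA2, APOE, APOC3, APOC1, APOM, APOA5, MTTP and APOA4, and no neighbours in that order had overlapping intervals. With melatonin at 24 h APOA2 came first, and the intervals of APOA1 and APOB, of APOC1 and APOC3 and of APOA5 and MTTP overlapped. In DMSO at 48 h those of APOA1 and APOB and of APOA5 and MTTP overlapped, and with melatonin at 48 h those of APOM and APOC1. Together the 10 genes had 2.18% and 2.22% of the reads on genes at 24 h and 1.90% and 2.04% at 48 h, with DMSO and with melatonin. The order rests on the gene lengths of the deposited files, which for APOA2 are 945 bp against 474 bp in the canonical GENCODE transcript. With canonical lengths APOA2 came first in all 4 libraries and MTTP came above APOA5.

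**Figure D1:**
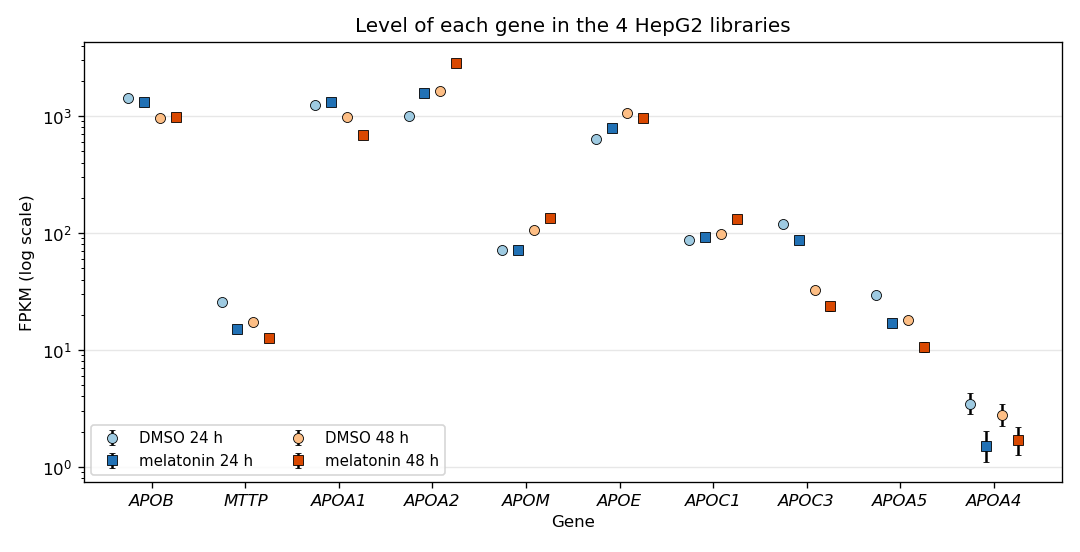
Level of each gene as FPKM on a log axis, by library, with the 95% counting interval as a bar where it is wider than the point. APOA1, APOA2, APOB and APOE lie between 635 and 2853 in all 4 libraries, and APOA4 lies between 1.51 and 3.48.

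APOB encodes the structural protein of VLDL, and its level was close between melatonin and DMSO at both times. Its FPKM was 1421 in DMSO and 1312 in melatonin at 24 h, then 966 and 990.0 at 48 h. The 4 values come from 313971 to 394550 reads. Melatonin over DMSO gave a log2 fold change of -0.12 at 24 h and 0.04 at 48 h, and both signs turned after rescaling to TPM, to 0.06 and -0.02. Here and below, a log2 fold change is that of FPKM plus 1, which understates the change of low genes, while a ratio is that of the FPKM themselves.

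MTTP, which encodes the lipid-transferring subunit of MTP, was lower with melatonin at both times. The DMSO libraries had an FPKM of 25.8 at 24 h (2556 reads) and 17.3 at 48 h (2048 reads). The melatonin libraries had 15.2 (1663 reads) and 12.6 (1514 reads). Both melatonin libraries were below both DMSO libraries. The ratio was 0.589 (interval 0.553 to 0.627) at 24 h and 0.730 (0.683 to 0.781) at 48 h, or log2 fold changes of -0.73 and -0.42. As low or lower on this scale were 741 of the 13582 genes tested at 24 h and 2168 of the 13805 tested at 48 h. TRMT10A, on the opposite strand and overlapping the 5′ end of MTTP, had 87 to 136 reads.

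In DMSO the FPKM of APOB was 55.1 times that of MTTP at 24 h (53.0 to 57.3) and 55.8 times at 48 h (53.4 to 58.3). In melatonin it was 86.4 times (82.3 to 90.7) and 78.4 times (74.5 to 82.5). The DMSO libraries thus had close ratios at both times and the melatonin libraries had higher ones. This quotient and the others below do not depend on library size, and which pairs to print was chosen after the values were seen.

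Of the HDL apolipoproteins, APOA2 was higher with melatonin at both times, while APOA1 was lower at 48 h. APOA2 encodes apolipoprotein A-II, and its FPKM was 999.9 at 24 h and 1629.8 at 48 h in DMSO, against 1561 and 2853 in melatonin. DMSO at 24 h was the lowest library and melatonin at 48 h the highest. The ratio was 1.56 (1.53 to 1.59) at 24 h and 1.75 (1.73 to 1.77) at 48 h, with log2 fold changes of 0.64 and 0.81. As high or higher were 441 of the 13582 genes tested at 24 h and 570 of the 13805 tested at 48 h. Among 19834 nuclear protein-coding genes APOA2 ranked 12 by FPKM with DMSO at 24 h and 2 with melatonin at 48 h.

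APOA1 encodes apolipoprotein A-I, the main protein of HDL. Its FPKM was 1240.1 in DMSO and 1328 in melatonin at 24 h, then 974 and 691 at 48 h. Melatonin at 48 h was thus the lowest of the 4 libraries. The ratio was 1.07 (1.06 to 1.09) at 24 h and 0.709 (0.697 to 0.722) at 48 h, and the log2 fold changes of 0.10 and -0.49 differed by -0.59. The antisense gene APOA1-AS had 4 to 10 reads.

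In DMSO the FPKM of APOA2 was 0.806 times that of APOA1 at 24 h (0.792 to 0.821) and 1.67 times at 48 h (1.65 to 1.70). In melatonin it was 1.18 times (1.16 to 1.19) and 4.13 times (4.07 to 4.19). On the deposited gene lengths APOA1 thus had the higher level of the pair in DMSO at 24 h, and APOA2 had it in the other 3 libraries. On canonical lengths APOA2 was above APOA1 in every library, at 1994 against 1964 in DMSO at 24 h. Which of the pair is higher there therefore depends on the lengths used, while the change of the ratio between libraries does not.

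APOM encodes apolipoprotein M, an HDL protein that carries sphingosine-1-phosphate. Its FPKM was 71.1 at 24 h and 106 at 48 h in DMSO, against 71.2 and 134 in melatonin. The ratio was 1.00 (0.944 to 1.06) at 24 h, and a difference was not detectable at this depth. At 48 h it was 1.26 (1.21 to 1.32), a log2 fold change of 0.34. The 5′ end of APOM overlaps BAG6 on the opposite strand, which had 7266 to 8731 reads, and whether the counting used strand is not stated.

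**Figure D2:**
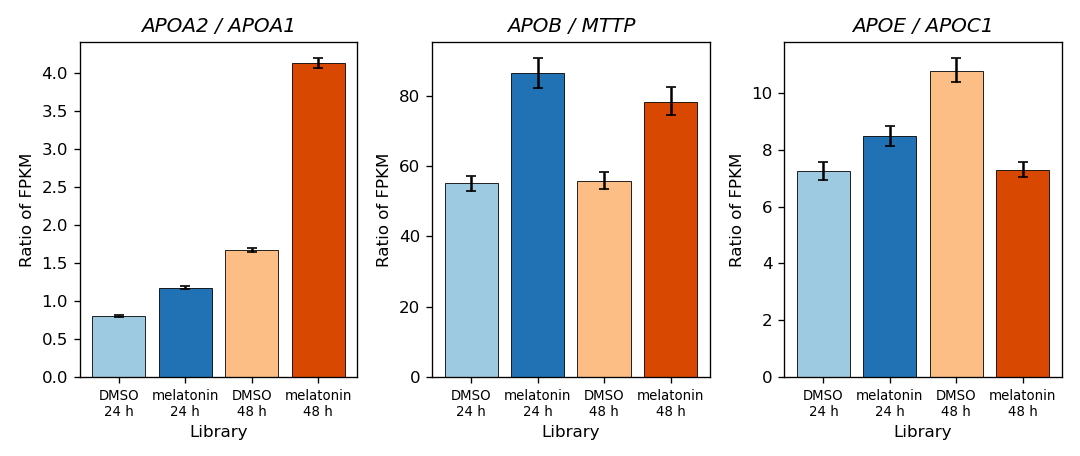
FPKM of 1 gene divided by that of another, on the deposited gene lengths, in each of the 4 libraries, with 95% counting intervals. APOA2 over APOA1 goes from 0.806 with DMSO at 24 h to 4.13 with melatonin at 48 h, and APOB over MTTP is 55.1 and 55.8 with DMSO and 86.4 and 78.4 with melatonin.

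APOE and APOC1 are neighbours on chromosome 19, and APOE peaked with DMSO at 48 h while APOC1 peaked with melatonin at 48 h. APOE encodes the ligand by which remnant particles bind receptors of the LDL receptor family. Its FPKM was 635 in DMSO and 784 in melatonin at 24 h, then 1057 and 968 at 48 h. The ratio was 1.23 at 24 h and 0.916 at 48 h, with log2 fold changes of 0.30 and -0.13, so melatonin was above DMSO at 24 h and below it at 48 h.

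APOC1 encodes a small apolipoprotein that hinders the uptake of particles and inhibits cholesteryl ester transfer protein. Its FPKM was 87.7 at 24 h and 98.0 at 48 h in DMSO, against 92.6 and 133 in melatonin. The ratio was 1.06 (0.993 to 1.12) at 24 h, with an interval that held 1, and 1.35 (1.29 to 1.42) at 48 h. APOC1P1, a near-identical copy beside it, was listed with 33 to 60 reads, and how reads common to both were assigned is not stated. APOE over APOC1 was 7.24 and 8.47 at 24 h and 10.8 and 7.30 at 48 h, with DMSO and with melatonin.

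The other 3 genes of the chromosome 11 cluster were all lower with melatonin at both times. APOC3 encodes an inhibitor of lipoprotein lipase and of remnant uptake, and its FPKM was 119 in DMSO and 86.6 in melatonin at 24 h, then 32.8 and 23.7 at 48 h. The libraries of 48 h were both below those of 24 h. Melatonin over DMSO was 0.725 (0.677 to 0.776) at 24 h and 0.721 (0.638 to 0.815) at 48 h, log2 fold changes of -0.46 and -0.45.

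APOA5 encodes apolipoprotein A-V, which promotes the breakdown of triglyceride by lipoprotein lipase. Its FPKM was 29.4 at 24 h and 17.9 at 48 h in DMSO, against 17.1 and 10.6 in melatonin. The ratio was 0.581 (0.526 to 0.640) and 0.594 (0.528 to 0.668), and the log2 fold changes were -0.75 and -0.70. The level with melatonin at 24 h was close to that with DMSO at 48 h. As low or lower were 698 of the 13582 genes tested at 24 h and 988 of the 13805 tested at 48 h.

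APOA4 encodes apolipoprotein A-IV, a protein made mainly by the intestine in humans, and had the lowest level of the 10. In DMSO its FPKM was 3.48 (2.81 to 4.25, 94 reads) at 24 h and 2.79 (2.24 to 3.42, 90 reads) at 48 h. In melatonin it was 1.51 (1.10 to 2.02, 45 reads) and 1.68 (1.27 to 2.19, 55 reads). Both DMSO intervals lay above both melatonin intervals. The ratio was 0.433 (0.297 to 0.624) at 24 h and 0.604 (0.423 to 0.853) at 48 h, and the log2 fold changes were -0.84 and -0.50. Of the genes tested, 574 were as low or lower at 24 h and 1755 at 48 h. At 24 h it was past 2-fold by its ratio and short of it on the log2(FPKM + 1) scale.

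**Figure D3:**
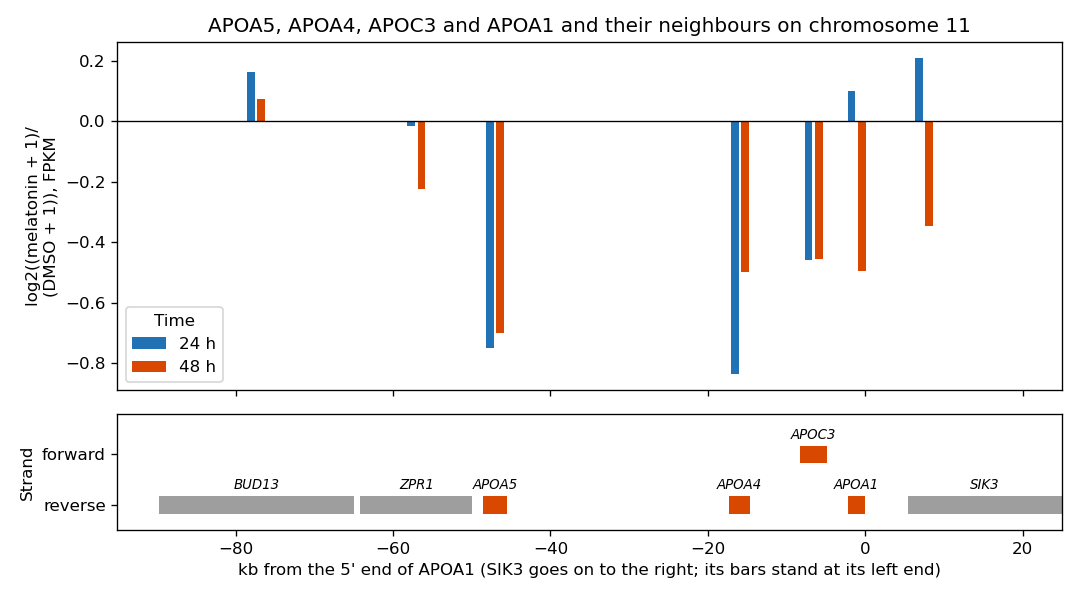
Log2 fold changes, melatonin over DMSO of FPKM plus 1, of the genes in and beside the chromosome 11 cluster, placed by distance in kb from the 5′ end of APOA1. APOA5, APOA4 and APOC3 are below 0 at both times, while APOA1 is 0.10 at 24 h and -0.49 at 48 h.

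Most of the listed genes around the clusters were within 2-fold, as were most genes tested. Of all tested genes 4.35% were past 2-fold at 24 h and 5.72% at 48 h, and the counts below are near these shares. Of 10 tested neighbours of the chromosome 11 cluster, chosen by name, TAGLN alone was past 2-fold, lower at both times, and the median log2 fold change was 0.04 at 24 h and 0.04 at 48 h. TAGLN encodes the actin-binding protein transgelin, and its 5′ end lies 361 kb from that of APOA1, with other genes between. Its FPKM was 4.13 in DMSO and 1.25 in melatonin at 24 h, then 7.01 and 2.20 at 48 h. Around APOE and APOC1, 0 of 10 tested neighbours were past 2-fold at either time, and their medians were -0.10 and -0.30. At 48 h the log2 fold changes of these neighbours ran from that of CLASRP, at -0.71, to that of APOC1P1, at 0.58.

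By the 2-fold threshold, 0 of the 10 genes were called between melatonin and DMSO at 24 h and 0 at 48 h, where 4.35% and 5.72% of all tested genes were. Where either library had 10 FPKM or more these shares were 1.22% and 4.36%. The median log2 fold change of the 10 was -0.06 at 24 h and -0.28 at 48 h, beside 0.02 and -0.02 over all genes tested. At 1.5-fold, 1 of the 10 was higher at 24 h (APOA2) and 3 were lower (APOA4, APOA5 and MTTP), where 4.02% and 7.53% of tested genes were. At 48 h, 1 was higher (APOA2) and 1 was lower (APOA5), which is near the shares of all genes, 8.62% and 10.0%. Between 24 h and 48 h the melatonin difference of APOA5 changed by 0.03 (-0.18 to 0.25) on the log2 scale of plain ratios and that of APOC3 by -0.01 (-0.21 to 0.19), whereas that of APOA1 changed by -0.59 (-0.63 to -0.56).

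**Figure D4:**
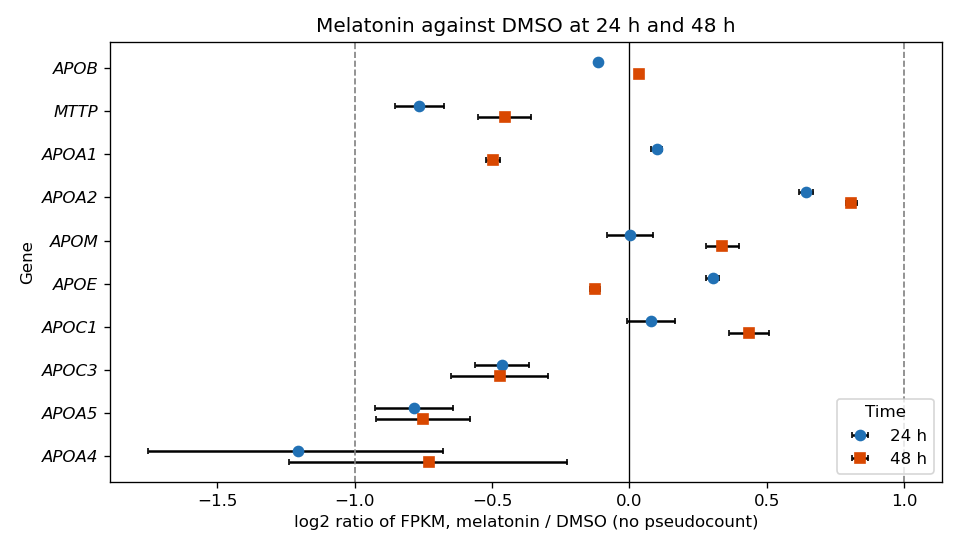
Log2 ratio of the FPKM, melatonin over DMSO, of each gene at 24 h and at 48 h with 95% counting intervals. APOA2 is above 0 and APOA4, APOA5, APOC3 and MTTP are below 0 at both times, APOA1 and APOE are on opposite sides, and APOB lies near 0, on sides that turn with TPM.

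**Figure D5:**
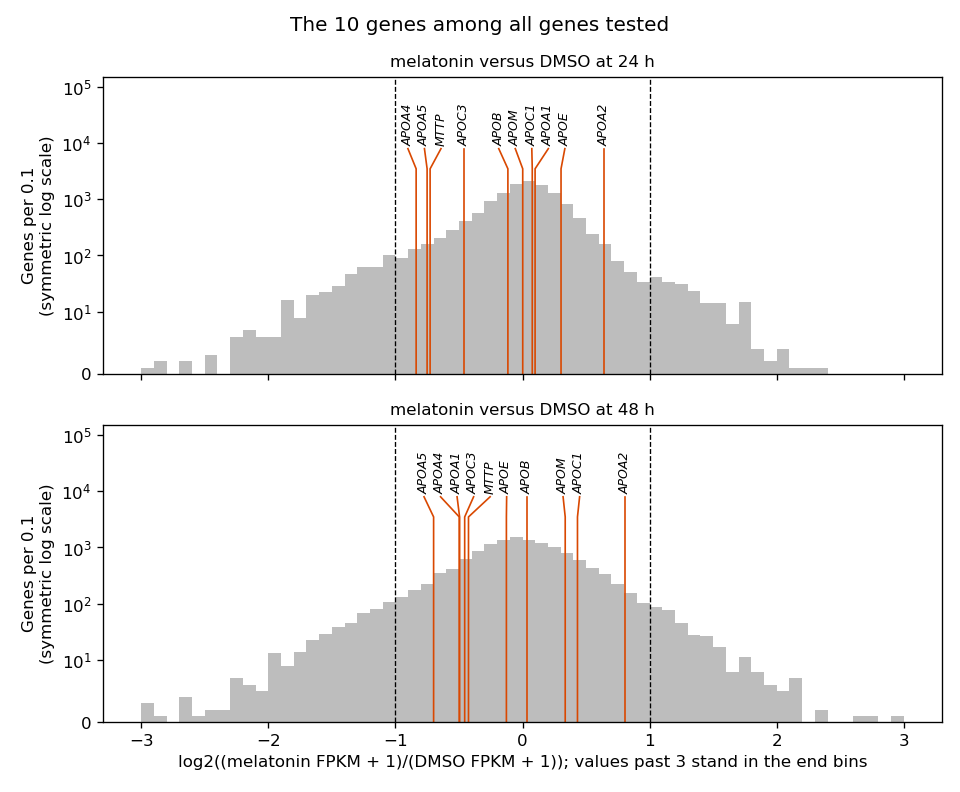
Histogram of the log2 fold changes of FPKM plus 1 over all genes tested at 24 h (13582) and at 48 h (13805) on a symmetric log axis, with the 10 genes marked and dashed lines at 2-fold. All 10 lie between the dashed lines at both times.

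The change from 24 h to 48 h within 1 treatment gave a larger difference than melatonin for APOC3, whose level was 3.64-fold lower at 48 h in DMSO and 3.66-fold lower in melatonin. The log2 fold change was -1.83 in both. In DMSO 62 of 13854 tested genes were as low or lower, and in melatonin 15 of 13489. APOC3 was the only one of the 10 past 2-fold, where 7.74% of all tested genes were in DMSO and 4.15% in melatonin. It stayed past 2-fold after rescaling to TPM, at -1.35 and -1.58. APOB (-0.56 in DMSO and -0.41 in melatonin) and APOM (0.56 and 0.90) also differed more over time than between melatonin and DMSO. The comparisons over time share their libraries with those of melatonin and are no separate evidence on the same values.

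Over time in DMSO, APOA2, APOE and APOM were higher at 48 h by log2 fold changes of 0.70, 0.73 and 0.56, and APOA5, APOB and MTTP were lower by -0.69, -0.56 and -0.55. In melatonin APOA2, APOM and APOC1 were higher by 0.87, 0.90 and 0.51, and APOA1 and APOA5 were lower by -0.94 and -0.63. Rescaled to TPM, which moved the median of all genes to 0.46 in DMSO and 0.23 in melatonin, APOA2 and APOM passed 2-fold upward in both treatments (1.21 and 1.07 in DMSO, 1.15 and 1.18 in melatonin), and APOE did so in DMSO (1.24). Under TPM APOA1 turned from -0.35 to 0.16 and APOA4 from -0.24 to 0.16 in DMSO, and MTTP from -0.25 to 0.01 in melatonin. With a library size without mitochondrial genes, none of these values passed 2-fold or changed sign. APOA2, APOE and APOM were then at 0.69, 0.72 and 0.55 in DMSO, and APOA2 and APOM at 0.92 and 0.95 in melatonin. APOA1 and APOA4 were at -0.36 and -0.25 in DMSO, and MTTP was at -0.20 in melatonin.

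The other genes of the pathway were taken from lists written by name. The counts of these lists stand beside 4.35% of all tested genes past 2-fold at 24 h and 5.72% at 48 h. Of 16 tested partners of VLDL assembly and secretion, 0 were past 2-fold at 24 h and 1 was at 48 h, with median log2 fold changes of 0.06 and -0.17. That gene was SOAT2, an enzyme that makes cholesteryl ester in hepatocytes, with an FPKM of 36.1 at 24 h and 34.2 at 48 h in DMSO, against 21.7 and 16.0 in melatonin. P4HB, the other subunit of MTP and a protein disulfide isomerase, was chosen after its values were seen. Its FPKM was 457 and 389 at 24 h and 335 and 258 at 48 h, log2 fold changes of -0.23 and -0.38. At 24 h the fall below DMSO was smaller than that of MTTP, and at 48 h its log2 fold change was close to the -0.42 of MTTP.

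Of 10 other apolipoproteins tested at 24 h and 9 at 48 h, 3 and 2 were past 2-fold, all lower with melatonin, and the medians were -0.55 and -0.38. APOF, which encodes an inhibitor of lipid transfer between particles, had an FPKM of 5.02 in DMSO and 1.75 in melatonin at 24 h, then 3.51 and 1.18 at 48 h. APOH, which encodes the phospholipid-binding beta-2-glycoprotein I, had log2 fold changes of -1.05 and -2.00. APOL1, which encodes a trypanosome-killing factor on HDL, had -1.40 and -0.38, the latter short of 2-fold. Of 16 other secreted hepatocyte proteins 1 was past 2-fold at 24 h (HPX, lower) and 4 at 48 h (TTR higher, VTN, HPX and ORM1 lower), with medians of -0.05 and -0.25.

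Of 11 tested lipoprotein receptors and their regulators 0 were past 2-fold at either time, with medians of 0.19 and 0.14. At 48 h the log2 fold changes ran from -0.46 for LSR, a receptor of triglyceride-rich particles, to 0.55 for MYLIP, the ligase that marks the LDL receptor for breakdown. Of 7 tested lipases and HDL remodelling genes, 0 were past 2-fold at 24 h and ANGPTL8 was at 48 h, with medians of -0.36 and -0.49. ANGPTL8, which encodes an inhibitor of lipoprotein lipase, had an FPKM of 2.90 and 2.94 at 24 h and of 7.05 with DMSO and 2.54 with melatonin at 48 h.

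Among 24 tested transcription factors of apolipoprotein genes, 1 was past 2-fold at 24 h and 1 at 48 h, with medians of -0.05 and -0.18. NR0B2, which encodes the repressor SHP, had an FPKM of 32.7 at 24 h and 49.1 at 48 h in DMSO, against 67.7 and 76.4 in melatonin. NR1H4, which encodes the bile acid receptor FXR, had 12.4 and 5.84 at 24 h and 14.3 and 4.33 at 48 h. APOBEC1, the enzyme that edits APOB mRNA in the intestine, had 0 reads in all 4 libraries, and 0 of the 3 tested genes of APOB mRNA editing were past 2-fold. In that list the log2 fold changes at 48 h ran from -0.42 for A1CF, a cofactor of that enzyme, to 0.00 for RBM47.

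Among 3283 genes that reached 10 FPKM in all 4 libraries, those whose profile over the 4 libraries was nearest to the mean profile of the 10 were METAP2, SNRPE, KDM5C, ATIC and STIP1. Their Euclidean distances, on the log2(FPKM + 1) scale centred for each gene, were 0.0131 to 0.0495. With 4 points and a mean over genes that moved in both directions, this is a description only.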

How the data were processed

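The 10 genes and the gene lists were chosen with earlier results of these data known. Per the methods, the authors prepared libraries from polyadenylated RNA, aligned the read pairs with MapSplice (hg38) and took expression with Cufflinks, while the submitters' processing notes name Bowtie2 2.0.6, TopHat2 2.0.9, Cufflinks 2.1.1 and Cuffdiff 2.1.1. The authors deposited FPKM per gene, with a gene length in bp whose method is not given. The product of FPKM and length came in whole steps of 1 read for 100% of values (within 0.01 read), so reads were recovered and used for 95% Poisson and binomial intervals. The library size implied by the FPKM was below the recovered reads on genes in every library. It was 18357838 against 21616676 in DMSO at 24 h and 22205042 against 22820651 in melatonin at 48 h. Why they differ was not tested, and the counting intervals do not cover it. With 1 library per condition no test of the condition was run. Genes that reached 1 FPKM in a library of the comparison were compared as log2 of FPKM plus 1, with calls at 2-fold.

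All 10 genes were named. Of the other lists, the genes past 2-fold in melatonin against DMSO were named, otherwise the largest rise and fall at 48 h, and 5 genes by likeness of profile. The alternatives were a pseudocount of 0.1, no filter, a minimum FPKM of 5, TPM, centring on the median, library sizes without mitochondrial genes or as the sum of reads, and a 1.5-fold threshold. A pseudocount of 0, canonical lengths of GENCODE 44 and a minimum FPKM of 10 were chosen after seeing the data. Scripts were tested on simulated data. Python 3.11.15, numpy 2.4.6, pandas 2.3.3, scipy 1.17.1 and matplotlib 3.10.9 were used.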

Additional observations from a re-analysis of the deposited data

Results flagged for a closer look

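For 3 of the 10 genes melatonin and DMSO stood in opposite order at 24 h and at 48 h. The share of all tested genes that did so was not counted, so this is not shown to be particular to the 10. The difference between the times, with 1 library per condition, was not tested. For APOA1 the log2 fold change was 0.10 at 24 h and -0.49 at 48 h, a difference of -0.59. For APOE it was 0.30 and -0.13, a difference of -0.43. For APOB it was -0.12 and 0.04, a difference of 0.15, and both signs turned after rescaling to TPM.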

How the results depend on the processing

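No paired analysis was possible because each condition has 1 library. Of 352 recomputed values of single genes 277 moved by less than their counting interval, 75 moved by more, and 0 called values changed sign. The only values called in the main setting were those of APOC3 over time, at -1.83, so the lack of sign changes was all but fixed. It says nothing of melatonin against DMSO, where no value was called. The settings of no filter and of a minimum FPKM of 5 or 10 only change which genes are kept. They cannot move the value of a gene, so their part of the 277 was fixed in advance and shows no stability. An uncalled value changed sign in 6 cases, each given in the report except APOM at 24 h, which turned from 0.00 to -0.02 after centring on the median. The count of genes past 2-fold at 24 h, 0, became 1 (APOA4) with a pseudocount of 0.1 and 1 with a pseudocount of 0, and 4 at 1.5-fold. At 48 h it became 2 at 1.5-fold. Over time in DMSO the count of 1 became 4 with TPM and 4 at 1.5-fold, and in melatonin 3 with TPM, 3 with the sum of reads and 5 at 1.5-fold. The median at 24 h was 0.0017 at a minimum FPKM of 5 or 10, 0.12 with TPM and 0.0066 with the sum of reads. The median at 48 h was -0.13 at a minimum FPKM of 5 or 10, -0.34 with TPM and -0.21 without mitochondrial genes, and over time in DMSO it was 0.16 with TPM. The median difference between the melatonin effects of the times, 0.16, was -0.071 with TPM, 0.20 after centring, 0.22 without mitochondrial genes and 0.13 with the sum of reads. The minimum of 5 or 10 leaves out APOA4. The cause of the other moves was not tested. TPM moved the median of all genes to 0.17 at 24 h and -0.06 at 48 h, and the share of higher genes among those past 2-fold from 32.7% to 45.8% at 24 h, from 45.2% to 80.7% over time in DMSO (61.8% with the sum of reads) and from 58.9% to 72.9% in melatonin. Depth limits APOA4 most, with 45 to 94 reads.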
